A study of Mus musculus with 2 samples.

Results

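Rgs4, Rgs5 and Rgcc are 3 of the 480 genes of a custom Xenium panel measured in whole mouse skin. All 3 were found by name in both sections. They were chosen by measured values of these same data, Rgs4 for a higher and Rgcc for a lower level in the epithelium of the Utx-cKO section. These ratios are therefore descriptions of the choice and carry no test. Xenium decodes single RNA molecules at their place in a tissue section. The material was fixed, paraffin-embedded skin of B6/129 female mice, cut at 5 µm, with 1 WT control section and 1 Utx-cKO section. In the Utx-cKO, Cre recombinase under the keratin 14 promoter deletes Kdm6a (also called Utx, a histone demethylase) in keratinocytes and their derivatives, while dermal, vascular and fat cells are not targeted by that promoter. The sources used here do not give ages, the number of animals or the skin site.

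Rgs4 and Rgs5 belong to the regulators of G protein signalling. These proteins speed up GTP hydrolysis by the alpha subunits of heterotrimeric G proteins and so shorten signalling from receptors for hormones, chemokines and vasoactive peptides. Rgs5 is widely used as a marker of pericytes, the contractile cells that wrap small vessels. Rgcc, the regulator of cell cycle also known as response gene to complement 32, binds the cyclin-dependent kinase CDK1 and is known from endothelial and fat tissue.

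Segmentation gave 40371 cells in WT and 52308 in Utx-cKO, with 3540184 and 2875112 transcripts at a quality score of 20 or more. Segmented cells contained 74.7% and 84.9% of them. Further work used the 33263 and 37395 cells that had 20 transcripts or more, with medians of 62 and 48. Of the cell barcodes, 2 occur in both sections by name. Each section consisted of 4 separate strips of tissue. Strips and cells of a section are not replicates, and no test was run. Each interval below is an exact 95% interval that covers counting error only. Levels are given in CPM, counts per 1e6 panel counts in the same cells, and compare a gene with itself only. A ratio of at least 1.5-fold is used as a rule of size. Kdm6a, the targeted gene, was at 2781 CPM in WT and 2228 in Utx-cKO epithelial cells, and its strips overlapped. The sources used here do not say whether its probes lie in the deleted part.

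Cells were grouped into 19 clusters without using the 3 genes, and 8 clusters were epithelial by their keratinocyte markers. The names come from marker genes. The basal keratinocyte-like cluster also had Tgm3 and Krt1, genes of later differentiation, among its leading genes. The vessel cluster was led by Myh11, Vwf and Plvap and mixed smooth muscle, blood endothelial and lymphatic genes, so it has no single cell type name. What is called the muscle gene cluster was led by Slc16a3, Cryab, Chac1, Tpi1 and Tnnt1. Only 1 listed skeletal muscle marker, Cryab, was among its leading genes, so that label is descriptive and not a cell type name. Finer sub-clusters were made after the data were seen.

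Over the whole sections, Rgs4 had 1336 transcripts in WT and 2064 in Utx-cKO, which is a log2 ratio per panel total of 0.93 (0.83 to 1.03). Rgs5 had 5524 and 4532, with a log2 ratio of 0.01 (-0.04 to 0.07). Rgcc had 3346 and 1312, with a log2 ratio of -1.05 (-1.14 to -0.96). Rgs4 transcripts lay in cells most often, 94.1% in WT and 96.7% in Utx-cKO, against 77.2% and 86.2% for Rgs5 and 65.8% and 88.3% for Rgcc. Of the in-cell transcripts, 68.1% and 62.4% of Rgs4 lay over a nucleus, 38.1% and 44.1% of Rgs5, and 51.5% and 57.0% of Rgcc.

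**Figure D1:**
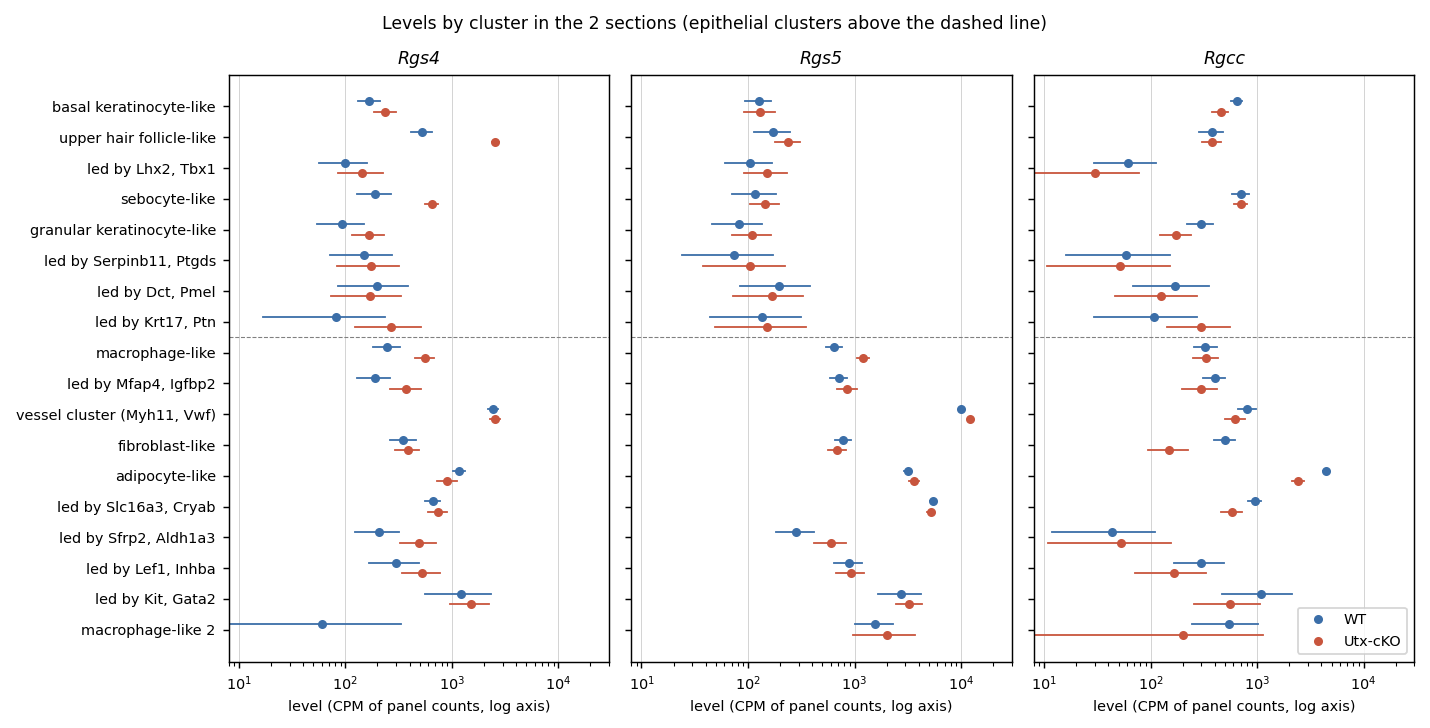
Level of each gene (x axis, CPM, log scale) in each cluster reported (y axis), WT in blue and Utx-cKO in red, with exact 95% Poisson intervals as lines; clusters with no count are not drawn. Rgs5 is highest in the vessel cluster (10078 and 12246 CPM), Rgcc in the adipocyte-like cluster (4407 and 2435), and Rgs4 reaches 2547 CPM in the Utx-cKO upper hair follicle-like cluster against 521 in WT.

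Rgs4 was high in the vessel cluster in both sections, at 2439 CPM (2190 to 2709) in WT and 2555 (2294 to 2839) in Utx-cKO. Within that cluster the pericyte and smooth muscle-like sub-cluster, led by Myh11, Sparcl1 and Notch3, held the highest Rgs4 level, 6607 CPM in WT and 5974 in Utx-cKO. In the upper hair follicle-like cluster, led by Sprr1a, Krt79 and Krt17, Rgs4 was at 521 CPM (415 to 647) in WT, below its level in adipocyte-like cells (1163), and at 2547 (2354 to 2752) in Utx-cKO. A smaller epithelial cluster led by Krt17, Ptn and Lhx2 also had 3 upper follicle markers among its leading genes, and there Rgs4 was at 80.8 and 270 CPM from 3 and 9 transcripts. The cells led by Kit and Gata2 had 1222 and 1501 CPM from 9 and 24 transcripts, and those of the muscle gene cluster led by Aqp1 and Cdh5 had 1665 and 2812 CPM from 52 and 46. In WT, 29.4% of the Rgs4 transcripts of kept cells lay in the vessel cluster and 6.90% in the upper follicle cluster. In Utx-cKO the shares were 19.2% and 35.6%. Of the kept cells themselves, 7.23% and 6.82% in WT and 7.47% and 12.1% in Utx-cKO were in these clusters. Over the 19 clusters the profiles most like that of Rgs4 were those of Myct1 (Pearson r = 0.75 of log2 CPM), Ecscr (0.74), Bdkrb2 (0.74), Gpr4 (0.73) and Flt1 (0.71), several of them endothelial genes.

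In all epithelial cells Rgs4 counted 237 transcripts in WT and 987 in Utx-cKO. By strip, the levels of Rgs4 were 155, 315, 123 and 284 CPM in WT and 1352, 346, 610 and 416 CPM in Utx-cKO. Every Utx-cKO strip was above every WT strip, with strip 1 of the Utx-cKO section far above the others. The same order was seen for 3.64% of the 439 genes compared. The log2 ratio over the section was 1.94 (1.74 to 2.15), the 3rd highest of those genes, of which 12.8% were at least 1.5-fold higher. Without Utx-cKO strip 1 the ratio was 1.40. The median log2 ratio of all genes compared in epithelial cells was 0.12.

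The Rgs4 ratio was unequal among epithelial clusters. The upper hair follicle-like cluster held 65.2% of the epithelial Rgs4 transcripts of the Utx-cKO section and 34.6% of those of WT. The cluster itself also differed in size, with 2267 cells in WT and 4519 in Utx-cKO. These were 6.82% and 12.1% of kept cells, and 19.6% in Utx-cKO strip 1. Its levels by strip were 543, 822, 179 and 944 CPM in WT and 4112, 615, 1702 and 1616 CPM in Utx-cKO. Of the Utx-cKO strips, 3 were above all WT strips and strip 2 lay within their range. The log2 ratio was 2.29 (1.96 to 2.64), the 3rd highest of 342 genes, of which 17.5% were at least 1.5-fold higher, and it was 1.54 without Utx-cKO strip 1.

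Sebocyte-like cells, led by the lipid genes Cidea, Fa2h and Elovl3, came next. Rgs4 was there at 165, 352, 125 and 333 CPM in the WT strips and at 962, 638, 717 and 144 CPM in the Utx-cKO strips, so Utx-cKO strip 4 lay among the WT strips. The log2 ratio was 1.76 (1.21 to 2.36), from 31 and 192 transcripts, and was the highest of 263 genes, of which 4.56% were at least 1.5-fold higher. The genes highest in Rgs4-positive over other cells of this cluster in Utx-cKO were the epithelial genes Krt77 (log2 ratio 1.69), Epcam (1.47), Ivl (1.46) and Sprr1a (1.45), with 0.62, 0.34, 0.88 and -0.02 in WT from 7 to 13 transcripts in 30 positive cells. The 9 fibroblast markers summed to 12011 CPM in WT (strips 3809 to 18196) and 6561 in Utx-cKO (2171 to 8787), with 6 of 9 at least 1.5-fold lower, and their part was not tested.

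In the other epithelial clusters Rgs4 was low in both sections. Basal keratinocyte-like cells had 167 CPM in WT and 237 in Utx-cKO, with a log2 ratio of 0.51 (0.00 to 1.01). Granular keratinocyte-like cells, led by Lce1m, Sdr9c7 and Hal, had 93.0 and 165 CPM. The highest negative control probe, which targets no mouse RNA, was at 97.8 and 213 CPM in the basal-like cells and at 87.5 and 284 CPM in the granular-like cells, so these Rgs4 levels were close to or below that background. In the upper follicle cluster the highest negative control probe was at 82.6 and 115 CPM, well under Rgs4. Without the upper follicle cluster the epithelial log2 ratio of Rgs4 was 1.14, and without it and the sebocyte-like cluster 0.50, which is under 1.5-fold.

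**Figure D2:**
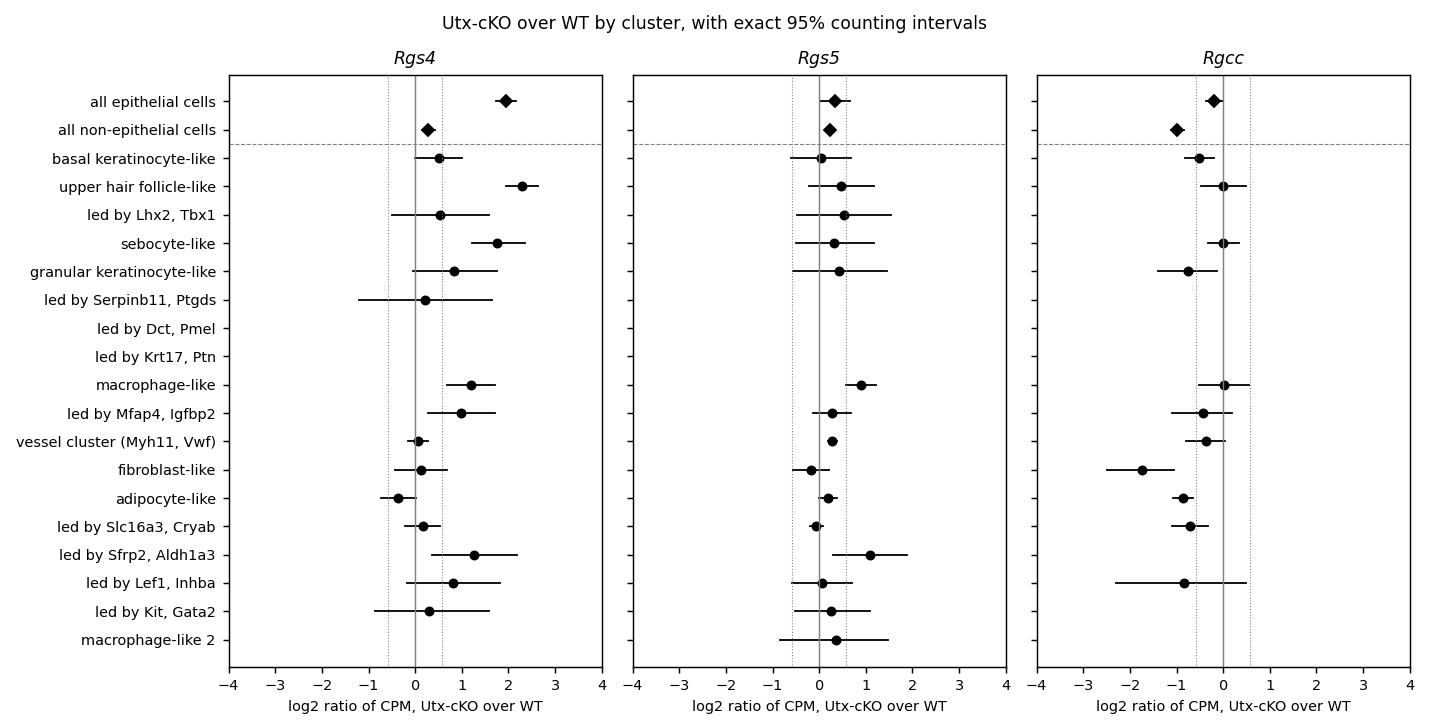
Log2 ratio of CPM, Utx-cKO over WT (x axis), for each gene in all epithelial cells, all non-epithelial cells (diamonds) and each cluster reported (circles), with exact 95% counting intervals; dotted lines mark 1.5-fold, and clusters with under 20 counts are left blank. Rgs4 stands at 2.29 in upper hair follicle-like and 1.76 in sebocyte-like cells but at 0.07 in the vessel cluster, Rgs5 at 0.28 in the vessel cluster, and Rgcc at -0.86 in adipocyte-like cells.

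Within the upper follicle cluster the Rgs4 level differed by sub-cluster. The sub-cluster led by Sostdc1, Gata6 and Cxadr had 495 CPM in WT and 2403 in Utx-cKO. There the Utx-cKO strips were at 1126 to 2925 CPM and the WT strips at 145 to 676 CPM. The share of genes with strips ordered this way was not counted in this sub-cluster. There 5.88% of genes were at least 1.5-fold higher. Its leading genes also held the T cell gene Cd3e and the cell division genes Mki67 and Cenpf. The 9 T and NK cell markers summed to 17312 CPM in WT (strips 14490 to 19540) and 7872 in Utx-cKO (6079 to 10872) in the same cells, with 6 of 9 at least 1.5-fold lower and none at 0, and the part of this in the Rgs4 ratio was not tested. The one led by Krt79, Krt17 and Sprr1a had 890 and 2816 CPM, where 17.2% of genes were at least 1.5-fold higher. In the sub-clusters led by Sostdc1 with Krt79 and by Gata6 with Pglyrp3 the Rgs4 levels were closer, 385 and 413 CPM, and 315 and 576 CPM.

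The highest Rgs4 level of any sub-cluster drawn was in cells led by Sprr2a2, Sprr2a3 and Sprr2a1, genes of small proline-rich proteins of the cornified envelope. This sub-cluster held 3 cells in WT and 225 in Utx-cKO, of which 200 were in Utx-cKO strip 1. Its Utx-cKO cells had 120 Rgs4 transcripts, 9404 CPM (7797 to 11245), and its 3 WT cells had 0, too few to bound a ratio. The 5 blood endothelial markers summed to 4154 CPM in these Utx-cKO cells, against 1361 CPM over the whole upper follicle cluster of that section. Of them 1 was at 0, and their part in the Rgs4 level was not tested. Without this sub-cluster the log2 ratio of the upper follicle cluster was 2.06.

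**Figure D3:**
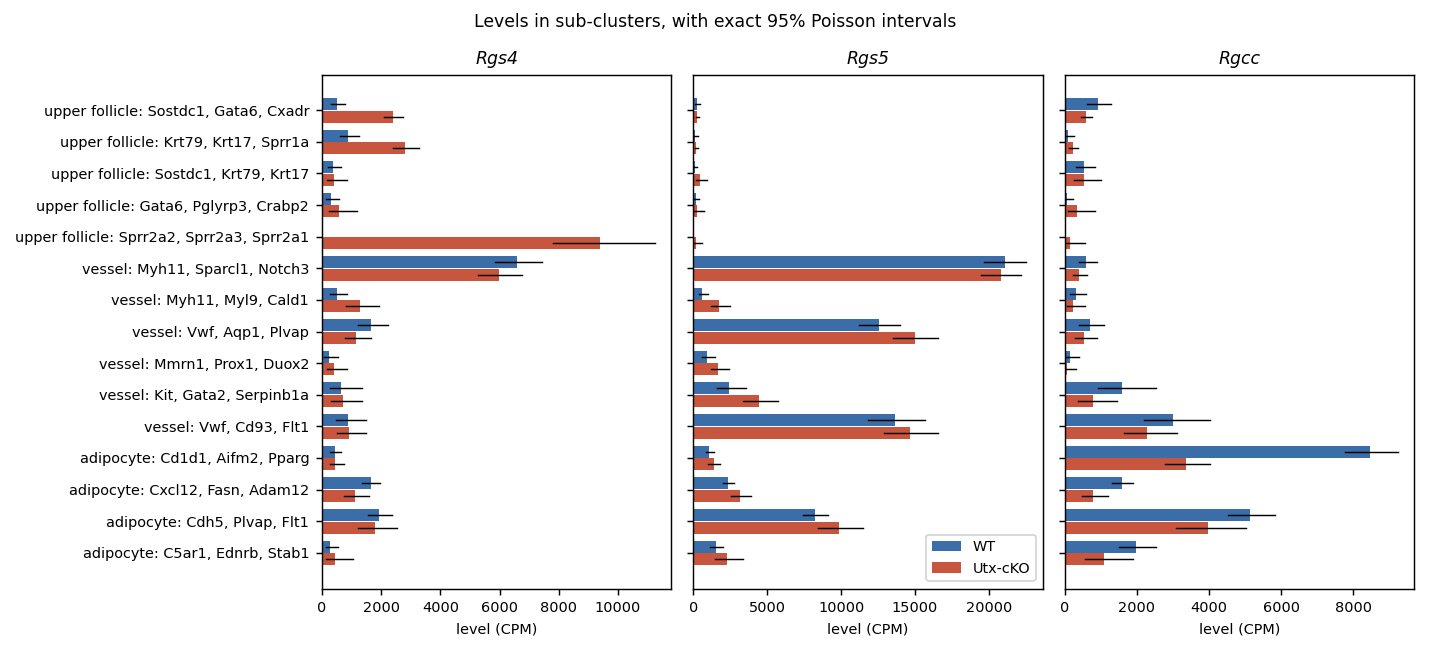
Level (x axis, CPM, from 0) of each gene in reported sub-clusters of the upper follicle, vessel and adipocyte-like clusters, named by their first 3 leading genes, WT in blue and Utx-cKO in red, with exact 95% Poisson intervals where a section has at least 20 cells. Rgs4 is highest in the Sprr2a2 sub-cluster (9404 CPM in Utx-cKO) and the Myh11, Sparcl1, Notch3 sub-cluster (6607 and 5974), where Rgs5 is also high. Rgcc is highest in the Cd1d1, Aifm2, Pparg sub-cluster in WT (8480, against 3368 in Utx-cKO) and in the Cdh5, Plvap, Flt1 sub-cluster in Utx-cKO (3981).

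More cells held Rgs4, and some held more of it. In the upper follicle cluster 3.22% of WT and 10.5% of Utx-cKO cells had an Rgs4 transcript. After each cell was thinned to 20 transcripts, which sets the depth equal, the shares were 1.01% (0.64 to 1.52) and 4.20% (3.64 to 4.83). Thinned granular keratinocyte-like cells, where Rgs4 was near background, had shares of 0.47% and 0.59%. At least 3 Rgs4 transcripts were found in 2 WT and 36 Utx-cKO cells of the upper follicle cluster, with at most 3 and 6 in a cell. Cells with at least 2 held 19.5% of the cluster's Rgs4 transcripts in WT and 44.4% in Utx-cKO.

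Rgs4-positive cells of the upper follicle cluster lay near each other. Among the 10 nearest cells of the same cluster, 9.45% were positive around a positive WT cell and 3.39% around any other. In Utx-cKO the shares were 24.2% and 9.58%. These shares pool the strips and sub-clusters, whose Rgs4 levels differed, and the part of strip, sub-cluster and depth in them was not tested. Positive cells lay a median of 57.3 µm from the nearest granular keratinocyte-like cell in WT and 74.3 µm in Utx-cKO, against 42.0 and 58.8 µm for the cluster's other cells. To the nearest sebocyte-like cell the medians were 27.0 and 24.7 µm for positive cells, and 31.3 and 32.2 µm for the others. Positive cells were also richer in transcripts, with medians of 60 against 56 in WT and 63 against 44 in Utx-cKO, and the part of depth in these distances was not tested.

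**Figure D4:**
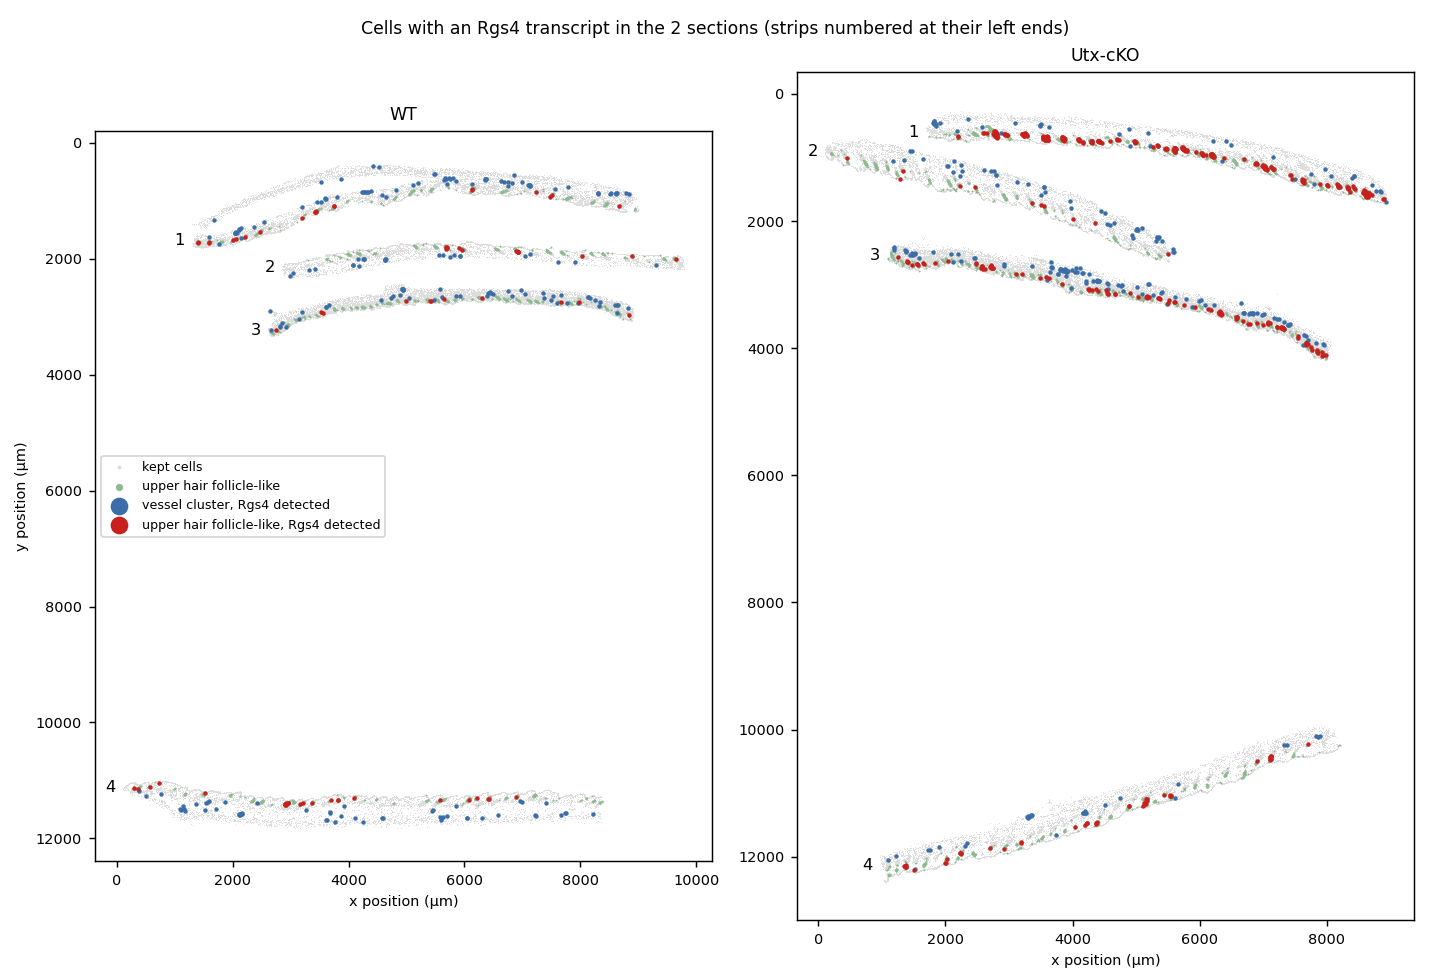
Position (x and y axes, µm) of kept cells (grey), upper hair follicle-like cells (green), those of them with an Rgs4 transcript (red) and vessel cluster cells with an Rgs4 transcript (blue) in each section, with the 4 strips numbered at their left ends. There are 73 red cells in WT and 474 in Utx-cKO, many of the latter in groups along strip 1, and 216 and 245 blue cells.

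In Utx-cKO upper follicle cells the panel genes highest in Rgs4-positive over other cells were Sprr2a3, with a log2 ratio of 1.99, Sprr2a2 at 1.70, Gsdmc (a gasdermin) at 1.52 and Sprr2a1 at 1.31. In WT their ratios were 0.73, 1.21, 1.17 and 0.42, from 4 to 19 transcripts each in 73 positive cells. In the vessel cluster a different set led. Itga7, an integrin subunit of muscle cells, was at 1.35 in WT and 1.49 in Utx-cKO, Notch3, a receptor of mural cells, at 1.73 and 1.46, and Rgs5 at 1.00 and 0.83. Markers of other cell types beside the upper follicle result differed less between sections. The 4 pericyte and smooth muscle markers summed to 3312 CPM in WT (strips 2984 to 3555) and 3461 in Utx-cKO (3146 to 3603), with 1 of 4 at least 1.5-fold higher. The 5 blood endothelial markers summed to 680 (346 to 839) and 1361 CPM (615 to 1992), with 2 of 5 at least 1.5-fold higher and none at 0. Their part in the Rgs4 ratio was not tested.

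Outside the epithelium Rgs4 counted 952 transcripts in WT and 820 in Utx-cKO, or 711 and 863 CPM. This gave a log2 ratio of 0.28 (0.14 to 0.42) against a median of 0.22 for all 450 genes compared. In the vessel cluster the Rgs4 strips were at 2861, 2694, 1354 and 4020 CPM in WT and at 3106, 4010, 2123 and 2305 CPM in Utx-cKO. They overlapped, and the log2 ratio was 0.07 (-0.15 to 0.29). In adipocyte-like cells Rgs4 was at 1163 and 908 CPM. In macrophage-like cells, led by C1qa and Cd68, it was at 245 and 561 CPM, from 50 and 96 transcripts, a log2 ratio of 1.20, and 23.9% of the genes compared there were at least 1.5-fold higher. That ratio was 0.36 without WT strip 1. Rgs5 and the 5 blood endothelial markers were also higher in those cells, from 646 to 1204 CPM and from 3092 to 4395 CPM, and their part was not tested. The Rgs4 log2 ratio was 0.99 (0.28 to 1.71) in the cluster led by Mfap4 and Igfbp2 and 1.26 (0.36 to 2.18) in that led by Sfrp2 and Aldh1a3. The vessel sub-cluster led by Myh11, Myl9 and Cald1 had 1.33 (0.33 to 2.37), and the Aqp1 and Cdh5 sub-cluster 0.76 (0.15 to 1.36). Each had under 100 Rgs4 transcripts and overlapping strips. Of the genes compared there, 7.92%, 8.84%, 6.25% and 5.38% were at least 1.5-fold higher.

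Rgs5 was a vessel gene in both sections. Of the Rgs5 transcripts in non-epithelial cells, 36.6% in WT and 50.7% in Utx-cKO lay in the vessel cluster. The muscle gene cluster held 32.5% and 20.8%, and adipocyte-like cells held 17.3% and 10.0%. The 5 genes with the most similar profile over the 19 clusters were endothelial or vascular: Cdh5 (Pearson r = 0.96 of log2 CPM), Cd93 (0.96), Flt1 (0.95), Aqp1 (0.94) and Gng11 (0.92). The clusters share libraries and depth, so these are descriptions.

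The highest Rgs5 levels were in the pericyte and smooth muscle-like sub-cluster, 21062 CPM in WT and 20796 in Utx-cKO, and in the Aqp1 and Cdh5 sub-cluster of the muscle gene cluster, 21517 and 23472 CPM. The blood endothelial-like sub-cluster led by Vwf, Aqp1 and Plvap had 12530 and 14984 CPM, and the one led by Vwf, Cd93 and Flt1 13641 and 14655 CPM. The sub-cluster led by Myh11, Myl9 and Cald1, had 614 and 1732 CPM of Rgs5. Segmented cells can take in transcripts of neighbours, and how far this sets the Rgs5 level of the endothelial-like cells was not tested.

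Rgs5 in all non-epithelial cells was at 2530, 2626, 2681 and 4725 CPM in the WT strips and at 3438, 4384, 3548 and 2333 CPM in the Utx-cKO strips, which overlapped. The log2 ratio was 0.23 (0.16 to 0.29), at the median of all genes compared, 0.22, and 22.4% of them were at least 1.5-fold higher. In the vessel cluster the strips were at 9836, 9820, 9460 and 12021 CPM in WT and at 16964, 14783, 10975 and 10603 CPM in Utx-cKO. The log2 ratio there was 0.28 (0.18 to 0.38), and it was -0.02 (-0.15 to 0.12) in the pericyte and smooth muscle-like sub-cluster. In the muscle gene cluster Rgs5 was at 5435 and 5210 CPM, but its sub-clusters differed. The one led by Slc16a3, Chac1 and Cryab had 3044 and 1893 CPM, a log2 ratio of -0.69 (-0.98 to -0.40) that was the 3rd lowest of 154 genes, of which 5.19% were at least 1.5-fold lower. The one led by Tnnt1, Arpp21 and Itm2a had 3527 and 5355 CPM, a ratio of 0.60 (0.22 to 0.98), where 8.65% were at least 1.5-fold higher. Strips overlapped in both, at 1637 to 4108 CPM in WT and 1555 to 2573 in Utx-cKO in the Slc16a3 one. In the Tnnt1 one they were at 1869 to 7304 and 1608 to 11910 CPM. There 3 of 4 pericyte and smooth muscle markers were at least 1.5-fold higher (sums 10842 and 12358 CPM), and their part was not tested. In the blood endothelial-like sub-clusters led by Vwf the Rgs5 ratios were 0.26 and 0.10, short of 1.5-fold. In the Myh11, Myl9 and Cald1 sub-cluster the interval of the log2 ratio was 0.61 to 2.42, from 18 and 31 transcripts, where 6.25% of genes were at least 1.5-fold higher. The vessel sub-clusters led by Mmrn1 and by Kit, also with few Rgs5 transcripts, had ratios of 0.83 (-0.01 to 1.70) and 0.87 (0.17 to 1.60), where 2.17% and 9.26% of genes were at least 1.5-fold higher. In macrophage-like cells the ratio was 0.90 (0.58 to 1.23).

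Thinned to 20 transcripts, 15.1% of WT and 17.9% of Utx-cKO vessel cluster cells had an Rgs5 transcript, against 0.29% and 0.33% of granular keratinocyte-like cells. As segmented the shares were 28.5% and 30.6%. A single cell held up to 19 Rgs5 transcripts in WT and 14 in Utx-cKO. Distances were taken to the nearest cell of the blood endothelial-like sub-clusters led by Vwf. The sub-clusters with Cdh5 in the adipocyte-like and muscle gene clusters were not targets. Outside the Vwf sub-clusters, Rgs5-positive cells of the vessel cluster lay a median of 33.0 µm (WT) and 23.5 µm (Utx-cKO) away. The medians were 61.8 and 40.6 µm for the others. Those positive cells were richer in transcripts, with medians of 69 against 45 in WT and 52 against 37 in Utx-cKO. The part of depth in these distances was not tested. After thinning, Rgs4 was found in 7.97% (5.40 to 11.2) of the Rgs5-positive and 3.09% (2.38 to 3.93) of the other vessel cluster cells in WT. In Utx-cKO the shares were 4.61% (2.94 to 6.84) and 3.96% (3.20 to 4.84), whose intervals overlap. Within the pericyte and smooth muscle-like sub-cluster they were 13.4% (8.78 to 19.3) and 10.6% (7.69 to 14.1) in WT. In Utx-cKO 6.90% of the Rgs5-positive cells there held Rgs4, and the interval for the others, 8.55 to 13.8%, overlapped theirs. In epithelial cells Rgs5 was low, 121 CPM in WT and 153 in Utx-cKO. The highest negative control probe was there at 64.2 and 114 CPM, so epithelial Rgs5 was close to that background.

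**Figure D5:**
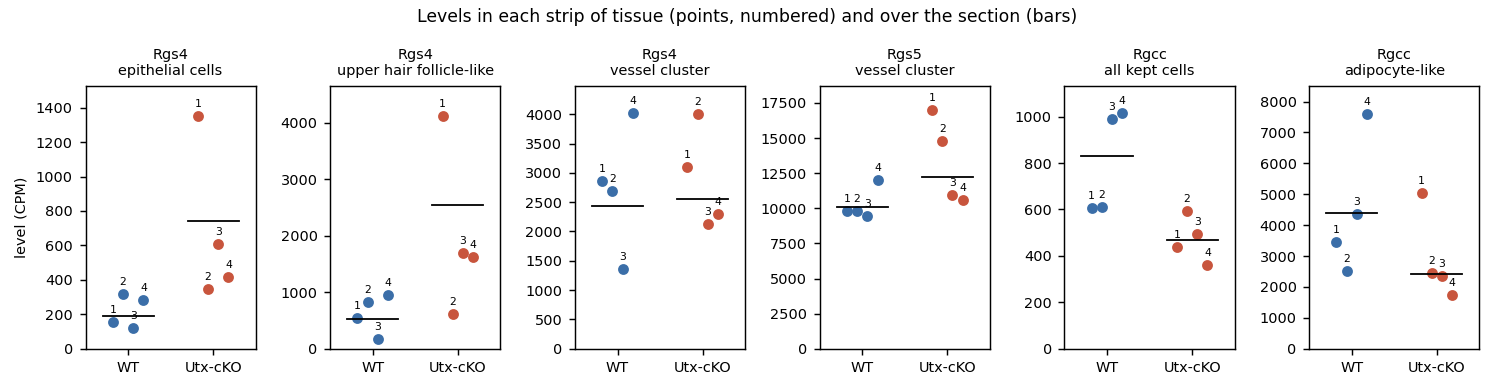
Level (y axis, CPM, from 0) in each of the 4 strips of a section (numbered points) and over the whole section (bars), WT in blue and Utx-cKO in red. The strips do not overlap for Rgs4 in epithelial cells (123 to 315 CPM in WT against 346 to 1352) or Rgcc in all kept cells (606 to 1016 against 360 to 593), and overlap in the other 4 panels.

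By cluster, Rgcc was highest in the adipocyte-like cluster in both sections. Adipocyte-like cells, led by Cd1d1, Fasn and Aifm2, held 947 of the 1607 Rgcc transcripts of non-epithelial WT cells and 220 of the 575 of Utx-cKO. Within this cluster the adipocyte-like core, led by Cd1d1, Aifm2 and the adipocyte regulator Pparg, had 8480 CPM in WT and 3368 in Utx-cKO. This core held 524 of the cluster's WT and 118 of its Utx-cKO Rgcc transcripts. The blood endothelial-like sub-cluster led by Cdh5, Plvap and Flt1 had 5146 and 3981 CPM, which in Utx-cKO was above the core. The sub-cluster led by Cxcl12, Fasn and Adam12 had 1578 and 781 CPM. The one led by the macrophage genes C5ar1 and Stab1, with Ednrb, had 1965 and 1083 CPM. The closest profiles over the 19 clusters were those of Itga7 (r = 0.76), Eno1b (0.70), Pparg (0.69), Cdh5 (0.68) and Psat1 (0.67).

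Over all kept cells Rgcc was at 606, 610, 989 and 1016 CPM in the WT strips and at 440, 593, 495 and 360 CPM in the Utx-cKO strips. Every Utx-cKO strip was below every WT strip, which was so for 0.849% of the 471 genes compared. Rgcc had a log2 ratio of -0.82 (-0.93 to -0.71), and 2.55% of genes were at least 1.5-fold lower. The share of adipocyte-like cells also differed, 8.58% of kept cells in WT (strips 6.38% to 12.9%) and 4.05% in Utx-cKO (0.89% to 9.05%).

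In non-epithelial cells Rgcc was at 707, 1093, 1479 and 1858 CPM in the WT strips and at 494, 762, 669 and 395 CPM in the Utx-cKO strips. Only Utx-cKO strip 2 was above the lowest WT strip. The log2 ratio was -0.99 (-1.13 to -0.85), the 3rd lowest of 450 genes, of which 2% were at least 1.5-fold lower. It was -0.69 when clusters were weighted to equal shares and -0.51 without the adipocyte-like cluster, which is under 1.5-fold.

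Within adipocyte-like cells the Rgcc strips were at 3444, 2529, 4346 and 7590 CPM in WT and at 5043, 2444, 2352 and 1754 CPM in Utx-cKO. Strip 1 of the Utx-cKO section, with few such cells, was above 3 of the WT strips, and the others were below all of them. The log2 ratio was -0.86 (-1.07 to -0.64), where 4.9% of 245 genes were at least 1.5-fold lower. In the adipocyte-like core it was -1.33 (-1.63 to -1.04), where 7.35% of genes were at least 1.5-fold lower, and in the endothelial-like sub-cluster -0.37 (-0.78 to 0.02). In the Cxcl12 sub-cluster it was -1.01 (-1.76 to -0.34), from 117 and 21 transcripts, where 6.29% of genes were at least 1.5-fold lower. In the C5ar1 sub-cluster it was -0.86 (-1.89 to 0.05), from 62 and 12 transcripts, where 9.78% were. The Rgcc strips of the core overlapped, at 3648 to 14478 CPM in WT and 1828 to 7586 CPM in Utx-cKO, where strip 1 had 32 core cells. The 4 adipocyte markers summed to 116120 CPM in WT and 91586 in Utx-cKO in the core. Of these, 1 of 4 was at least 1.5-fold lower, and their part in the Rgcc ratio was not tested. Thinned to 20 transcripts, 8.51% of WT and 4.29% of Utx-cKO adipocyte-like cells had an Rgcc transcript, and 15.6% and 6.02% of the core, against 0.71% and 0.50% of granular keratinocyte-like cells. As segmented the shares of adipocyte-like cells were 23.3% and 12.5%. In both sections Rgcc-positive adipocyte-like cells had more Cd1d1, with log2 ratios over other cells of 1.28 in WT and 1.18 in Utx-cKO, and more Pparg, with 0.87 and 0.85.

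Outside the adipocyte-like cluster, Rgcc was lower in some clusters and level in others. In the Slc16a3 and Cryab cluster it was at 950 and 581 CPM, a log2 ratio of -0.71, where 6.47% of genes were at least 1.5-fold lower. It was -0.15 in cells thinned to 20 transcripts, from 30 and 26 transcripts, and -0.55 without WT strip 3, both under 1.5-fold, and it lay further below 0 as mean counts per cell. In fibroblast-like cells it was at 502 and 149 CPM, a log2 ratio of -1.75, where 12% were, and without WT strip 3 that ratio was -0.80. In the vessel cluster it was at 808 and 626 CPM.

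In epithelial cells, where Rgcc had been picked as lowered, the section-wide difference was small. The strips were at 434, 302, 487 and 381 CPM in WT and at 415, 444, 337 and 340 CPM in Utx-cKO, which overlap. The log2 ratio of Rgcc was -0.19 (-0.37 to -0.01), short of 1.5-fold, from 523 and 497 transcripts, and 3.19% of genes were at least 1.5-fold lower. By cluster, basal keratinocyte-like cells had 647 and 454 CPM, a ratio of -0.51 (-0.82 to -0.21), and granular keratinocyte-like cells 295 and 174 CPM, a ratio of -0.76 (-1.40 to -0.13), where 5.6% of genes were at least 1.5-fold lower. Without WT strip 3 these ratios were -0.18 and -0.22. In the granular-like cells the ratio was also under 1.5-fold without Utx-cKO strip 4 (-0.45), over nuclei (-0.56) and in thinned cells (-0.50). The Utx-cKO level in granular-like cells was below the highest negative control probe there, 284 CPM. In sebocyte-like cells Rgcc was at 699 and 702 CPM, and in upper hair follicle-like cells at 375 and 376 CPM, with log2 intervals of -0.33 to 0.35 and -0.48 to 0.50. These 2 clusters had the highest Rgs4 ratios of the epithelium.

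The lists of related genes were thinly covered by the panel. Of 18 RGS genes listed, 2 were on it, Rgs4 and Rgs5. Of 99 G protein coupled receptors and G proteins, 8 were on it. In epithelial cells 6 of them could be compared, 1 of which was at least 1.5-fold higher, the prostaglandin receptor Ptger2 with a log2 ratio of 0.63, and 0 lower, with a median of 0.34 against 0.12 for all genes. Over all genes compared there 12.8% were higher and 3.19% lower. Ptger2 was at 78.8 CPM in WT and 122 in Utx-cKO epithelial cells. The highest negative control probe was at 64.2 and 114 CPM in the same cells, so Ptger2 was close to that background. In non-epithelial cells 1 of 8 was higher, the chemokine receptor Cxcr2 at 0.95, and 0 lower, with a median of 0.08 against 0.22, while 22.4% of all genes were higher and 2% lower. Of 37 cell cycle genes 10 were on the panel and 9 were compared, and 0 passed 1.5-fold in either compartment, with medians of 0.11 and 0.29. Of 31 complement and hypoxia genes 6 were on the panel, and 0 passed, with medians of 0.30 in epithelial and -0.22 in non-epithelial cells.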

How the data were processed

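Per the labels, probes for 480 genes and negative controls were hybridised to 5 µm sections. The tables deposited by the authors hold counts of decoded transcripts for each cell, and for each transcript its place, its cell and a quality score (maximum 40). The sources used here do not name the software for decoding and segmentation. Outlines of nuclei were left out.

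Transcripts of score 20 or more were counted per cell, and cells with at least 20 were kept. No doublet caller was run. Some clusters and sub-clusters are not reported here. Clustering left out the 3 genes and used 30 principal components, 15 neighbours and Leiden resolution 1 (leidenalg 0.10.2, scikit-learn 1.9.0). Clusters with at least 6% keratinocyte marker counts were epithelial (lowest 11.5%, highest other 5.13%). A name needed 3 markers among the 10 leading genes. Sub-clusters used resolution 0.5. Ratios are of CPM, for genes with at least 200 counts (100 within a cluster). Profiles were correlated as log2(CPM + 10). Of 20 negative control probes, the highest had 117 counts in WT and 199 in Utx-cKO cells. Levels have Poisson intervals, ratios conditional binomial ones, and shares Clopper-Pearson ones. With 1 section per group no test was possible. The ratio was tested on simulated data. The genes named are the 3, the 5 most similar, list members past 1.5-fold, marker and leading genes, and those highest in positive cells. The genes and lists were chosen with earlier results of these data known, and sub-clusters and strips were defined after seeing the data.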

Additional observations from a re-analysis of the deposited data

Results flagged for a closer look

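Transcripts that lay in no segmented cell counted in the whole-section ratios but were not part of the comparisons by cell. Outside cells WT had 79 Rgs4, 1261 Rgs5 and 1146 Rgcc transcripts and Utx-cKO had 68, 625 and 153, while the highest negative control probe had 12 in each. As CPM of the transcripts outside cells, Rgcc was at 1280 in WT and 353 in Utx-cKO, and its log2 ratio was -1.86 (-2.11 to -1.61). For Rgs5 that ratio was 0.04 (-0.11 to 0.17), and for Rgs4 0.83 (0.34 to 1.32). The nearest kept cell was adipocyte-like for 62.6% and 49.0% of these Rgcc transcripts, and of the cluster led by Slc16a3 and Cryab for 50.6% and 43.0% of the Rgs5 transcripts. Differences between these counts were not tested.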

How the results depend on the processing

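No paired analysis was possible because each group has 1 section. The epithelial log2 ratio of Rgs4 (1.94) was 1.68 over nuclei, 1.69 as mean counts per cell, 1.61 in thinned cells and 1.66 with clusters at the same share. It was 1.14 without the upper hair follicle-like cluster, 0.50 without that and the sebocyte-like cluster, and 1.40 to 2.17 with a strip left out. The non-epithelial ratio of Rgs5 (0.23) was -0.27 as mean counts per cell, 0.0033 centred on the median, 0.061 with epithelial cells called one by one, and 0.092 to 0.40 with a strip left out. For Rgcc, the epithelial ratio (-0.19) was -0.44 as mean counts per cell, -0.43 with cells called one by one, and -0.25 to -0.050 without a strip. Its non-epithelial ratio (-0.99) was -1.48 as mean counts per cell, -1.21 centred, -0.69 with clusters at the same share, -0.51 without adipocyte-like cells, and -1.34 to -0.79 without a strip. Alternatives that drop clusters or regroup sub-clusters were chosen after seeing the data. Over 14 results, 272 of 280 alternative values kept the sign. Depth limits the rarer clusters, where ratios rest on under 100 transcripts.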
